A study of Mus musculus with 8 samples.

Results

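Genes of the Wnt pathway were followed through blood stem and progenitor cells with and without Tet1, an enzyme that oxidizes 5-methylcytosine in DNA. The 10 members, Lef1, Tcf7l2, Axin1, Axin2, Ctnnb1, Apc, Gsk3b, Lrp5, Lrp6 and Fzd8, were chosen by name, with earlier results of these data known. All 10 were among the 17893 genes listed for both cell populations. RNA was measured by poly(A) sequencing in 8 libraries of flow-sorted mouse bone marrow cells: 2 each of long-term hematopoietic stem cells (LT-HSC) and multipotent progenitors (MPP), from wild-type (WT) and from Tet1 knockout (KO) marrow. The labels give the strain of all groups as CD57BL/6, an age of 6 months, and sorting 20 weeks after the mice had received WT or Tet1 KO bone marrow, so every group is a transplant. Each library came from 10000 LT-HSC or 100000 MPP. The sources used here do not give the deleted part of Tet1 or the gates of the sort. They also do not say that the 2 libraries of a group came from separate mice. All p-values therefore reflect the spread between these libraries alone, which may be technical.

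In canonical Wnt signalling a secreted Wnt protein binds a Frizzled receptor, such as Fzd8, together with the co-receptor Lrp5 or Lrp6. Without the signal, a cytoplasmic destruction complex built on Axin1 or Axin2 and Apc lets the kinase Gsk3b mark beta-catenin (Ctnnb1) for breakdown. With the signal, beta-catenin builds up and acts in the nucleus with the DNA-binding factors Lef1 and Tcf7l2. Axin2 and Lef1 are themselves widely used targets of the pathway, and Lef1 is also a known factor of early T and B cell development. In blood formation the pathway has been studied for its dose-dependent effects on stem cell self-renewal.

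Of the members, 5 (Lef1, Tcf7l2, Axin2, Ctnnb1 and Gsk3b) had promoter windows in the RefSeq table (GRCm38.p6). The 250 bases before the start are printed for Lef1 and Axin2, because these are the members that passed the test between genotypes in MPP. CG dinucleotides, the main place of methylation in mammalian DNA, are in capitals. The Lef1 stretch is chr3:131110047-131110296 and the Axin2 stretch is chr11:108920099-108920348, both on the + strand. The table holds 4 windows of Lef1, with 11, 14, 6 and 5 CG dinucleotides, and the outermost start is shown.
Lef1: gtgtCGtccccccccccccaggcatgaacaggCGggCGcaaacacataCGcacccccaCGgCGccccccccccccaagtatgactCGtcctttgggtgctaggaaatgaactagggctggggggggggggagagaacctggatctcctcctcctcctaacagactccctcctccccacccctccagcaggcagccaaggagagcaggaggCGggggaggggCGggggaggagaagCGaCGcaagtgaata
Axin2: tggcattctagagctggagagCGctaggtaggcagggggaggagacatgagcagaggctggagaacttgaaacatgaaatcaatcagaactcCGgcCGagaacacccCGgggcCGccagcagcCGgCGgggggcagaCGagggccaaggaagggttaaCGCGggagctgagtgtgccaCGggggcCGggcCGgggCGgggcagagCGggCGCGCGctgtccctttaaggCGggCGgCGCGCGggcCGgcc
The Lef1 stretch holds 11 CG and the Axin2 stretch 24. Among all 32851 windows in that table the median was 6, and 35.6% and 12.0% of windows held at least as many. The letters ATCAAAG, a core of the Lef1 and Tcf7l2 binding motif, were searched on both strands of the same 250 bases. They were found in 0 of the 10 windows of these members and in 3.21% of all windows. Of the 17 genes of a list of Wnt targets with a window, 2 held them. These are descriptions of the sequence, and DNA methylation was not analysed here.

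Total counts were 4976459 to 5479731 per LT-HSC library and 11928659 to 12504581 per MPP library. Levels below are counts scaled to the library total as CPM, which are not scaled to gene length and are compared only within a gene. Where no read was counted, the true level may still reach 0.547 to 0.603 CPM in LT-HSC and 0.24 to 0.251 CPM in MPP, taking 3 counts as the limit. In the WT libraries, 10 of 12 LT-HSC markers were higher in LT-HSC than in MPP. There 7 of 9 MPP markers were lower, with Kit, which both lists hold, on the higher side. Over all genes tested between the WT populations, 17.4% were higher and 16.9% lower in LT-HSC. Tet1 itself had 62.7 and 74.9 CPM in the KO and 60.6 and 86.0 CPM in the WT LT-HSC libraries (adjusted p = 0.765), against 61.2 and 68.9 in KO and 101 and 110 in WT MPP libraries (log2 fold change -0.62, adjusted p = 0.0282, edgeR quasi-likelihood test). Counts summed over 4 Y-linked genes were 36 to 73 in the KO and 786 to 2093 in the WT libraries, so sex of the cells and genotype cannot be told apart in any comparison below. Genes of 40 long neuronal loci, not known to be used by blood cells, were read at a median of 0.407 and 0.343 counts per kb of gene span in the LT-HSC KO libraries. The same median was 0.0458 to 0.0505 in LT-HSC WT and 0.0424 to 0.051 in MPP libraries. These rates are not scaled to depth, and the MPP libraries were deeper. Summed over the list, the rate was 0.620 and 0.426 in LT-HSC KO and 0.361 and 0.157 in LT-HSC WT libraries. In MPP libraries the summed rate was 0.232 to 0.362. Summed levels of erythroid markers were 4969 to 5086 CPM in LT-HSC KO and 1327 to 1350 CPM in LT-HSC WT libraries, and those of bone and stromal markers 602 to 792 CPM and 114 to 129 CPM. Over all genes tested in LT-HSC, 22.5% were higher and 10.9% lower in KO. LT-HSC markers summed to 1901 to 1911 CPM in LT-HSC KO and 2634 to 2684 CPM in LT-HSC WT libraries. Of these 12 markers, 4 were lower in KO (Esam, Fgd5, Ly6a and Vwf) and 0 higher. Megakaryocyte markers summed to 318 to 358 CPM in KO and 815 to 968 CPM in WT, with 6 of 8 lower. The part of these cells in the lower levels of Fzd8, Lrp5, Wls and Vangl2 in LT-HSC KO, given below, was not tested. In bulk RNA, fewer cells of a type and less RNA per cell cannot be told apart.

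In LT-HSC, 3 of the 10 members passed the test between KO and WT, at an adjusted p under 0.05 (edgeR quasi-likelihood test, Benjamini-Hochberg over all 15684 genes tested). Fzd8 and Lrp5 were lower in KO and Lef1 was higher. Across all genes tested 33.4% passed, so the share among the members was near that of the whole transcriptome. In MPP 2 of 10 passed, against 7.20% of the 14902 genes tested there, with Lef1 higher and Axin2 lower in KO. All 10 members passed the filter on low counts in every comparison. The KO and WT libraries did not overlap in CPM for 7 of the 10 members in LT-HSC and for 7 in MPP, beside 65.8% and 58.7% of all genes tested.

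**Figure D1:**
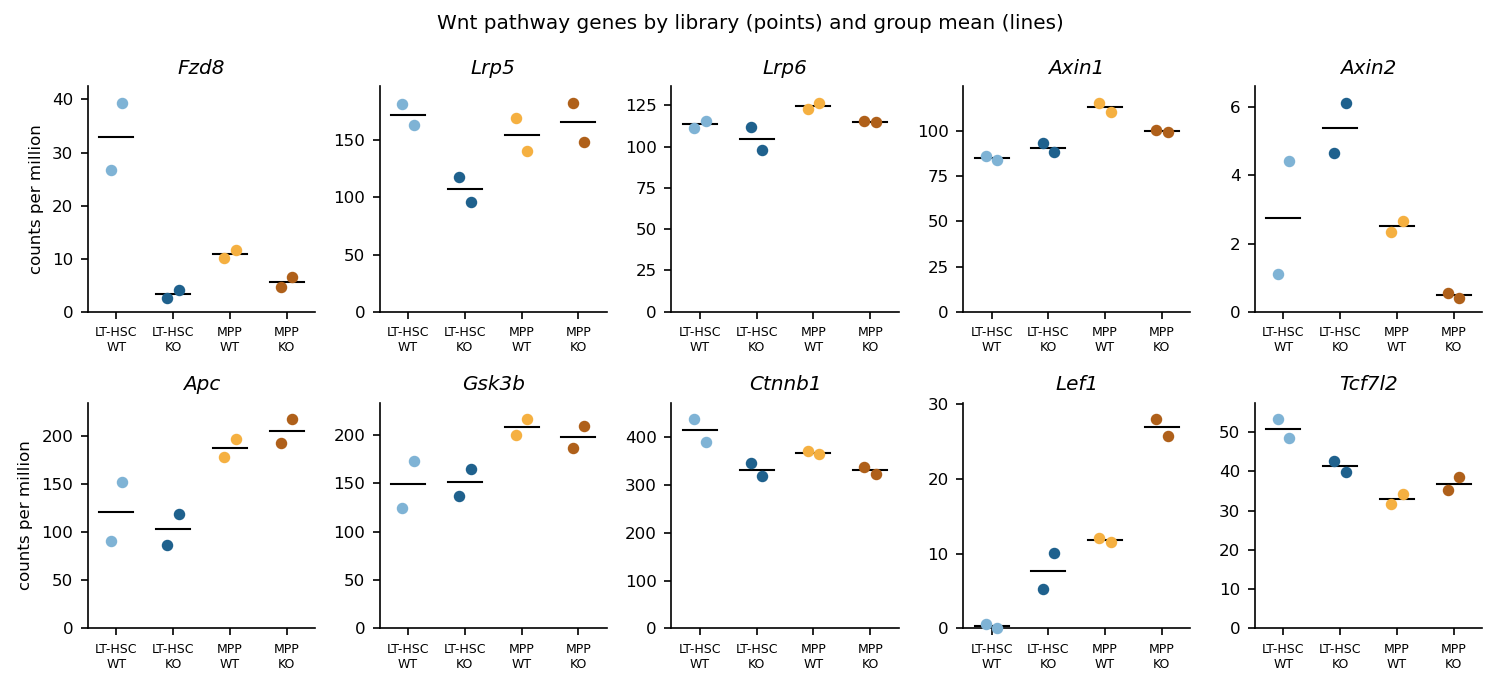
Level in CPM (vertical axis, from 0) of the 10 members in each of the 8 libraries (points), with the mean of each group of 2 as a line. Fzd8 was highest in both LT-HSC WT libraries, Lef1 was near 0 in both, and Axin2 was lowest in both MPP KO libraries.

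Among the members, Fzd8 had the largest fall in LT-HSC. This gene, a Frizzled receptor for Wnt proteins (Ensembl gene ENSMUSG00000036904, mm9 chromosome 18, 9212854 to 9216199, + strand), had 146 and 196 counts in the 2 LT-HSC WT libraries and 14 and 21 in the 2 LT-HSC KO libraries. That is 33.0 ± 9.01 CPM in WT and 3.38 ± 1.09 CPM in KO (SD, n = 2), and the groups were far apart. The log2 fold change, the log2 difference of KO minus WT in every sentence on genotypes, was -3.28 with a standard error (SE) of 0.34 (adjusted p = 0.000437, edgeR). In MPP, Fzd8 had 121 and 141 counts in WT and 58 and 81 in KO, or 10.9 ± 1.11 and 5.59 ± 1.34 CPM (SD, n = 2). Both KO libraries were below both WT libraries there as well, but the difference did not pass the test (log2 fold change -0.89, SE 0.21, adjusted p = 0.0722, edgeR). The authors' deposited table gives it an FDR of 0.0169 in MPP. The KO effect on Fzd8 was larger in LT-HSC than in MPP by -2.40 on the log2 scale (SE 0.42, adjusted p = 0.00771, edgeR interaction term).

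Fzd8, like Lef1, Axin1 and Tcf7l2, had an order of levels that separated all 4 groups. For Fzd8 the groups from low to high were LT-HSC KO, MPP KO, MPP WT and LT-HSC WT, with no overlap between neighbours. Among WT libraries it was higher in LT-HSC than in MPP, by 1.60 on the log2 scale (SE 0.22, adjusted p = 0.00412, edgeR).

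Lrp5, a co-receptor that binds Wnt beside Frizzled (ENSMUSG00000024913, mm9 chromosome 19, 3584828 to 3686564, - strand), had 992 and 811 counts in LT-HSC WT and 632 and 484 in LT-HSC KO libraries. Its level was 172 ± 12.8 CPM in WT and 107 ± 15.8 CPM in KO (SD, n = 2), without overlap. The log2 fold change was -0.69 (SE 0.19, adjusted p = 0.0223, edgeR). The authors' deposited FDR for Lrp5 in LT-HSC was 0.0715. Without either LT-HSC KO library the edgeR call ended: the value was -0.88 without replicate 1 and -0.51 without replicate 2. In MPP the 2281 and 1836 KO counts lay among the 2018 and 1684 WT counts once scaled to depth (165 ± 24.3 and 155 ± 20.6 CPM, SD, n = 2), with a log2 difference of 0.17 (SE 0.14, adjusted p = 0.492, edgeR). The 2 effects differed by -0.87 (SE 0.23, adjusted p = 0.0304, edgeR interaction term). The other three groups of Lrp5 lay close together, from 155 to 172 CPM, so that LT-HSC KO was the low group.

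Lrp6, the close relative of Lrp5 (ENSMUSG00000030201, mm9 chromosome 6, 134396494 to 134516983, - strand), was measured at 609 and 575 counts in LT-HSC WT and 598 and 494 in LT-HSC KO libraries. Its log2 fold change was -0.11 in LT-HSC (SE 0.16, adjusted p = 0.635) and -0.04 in MPP (SE 0.06, adjusted p = 0.746, edgeR). Group means stayed between 105 and 125 CPM, and neighbouring groups overlapped except at the top, where MPP WT lay above the rest.

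**Figure D2:**
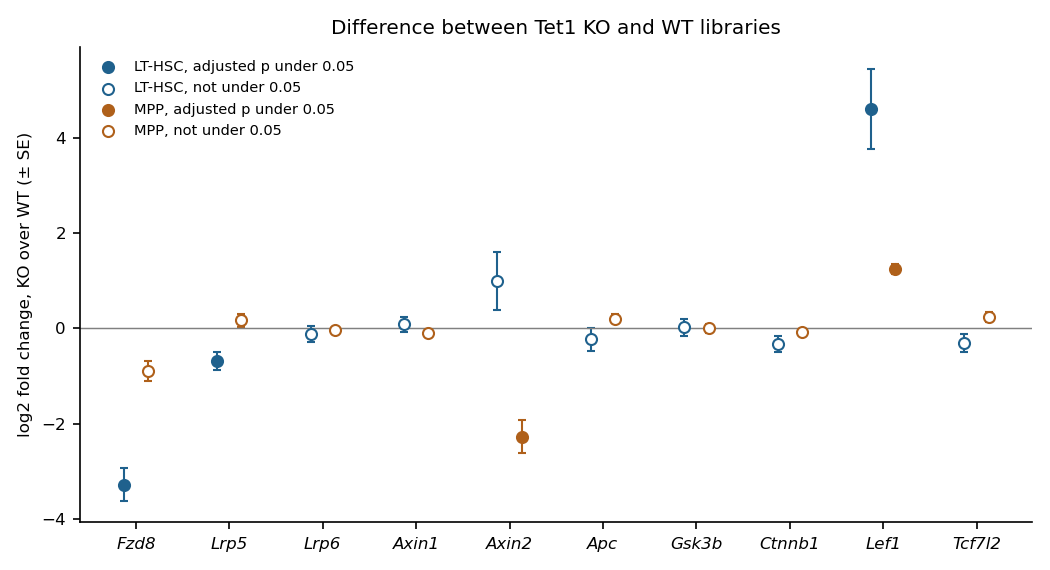
Log2 fold change of KO over WT (vertical axis) with its SE for each member in LT-HSC (blue) and MPP (brown). Filled points have an adjusted p under 0.05; the LT-HSC point of Lef1 rests on 3 WT counts and is a fitted value.

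The members that belong to the destruction complex, other than Axin2, did not pass the test in either population. Axin1, a scaffold (ENSMUSG00000024182, mm9 chromosome 17, 26275631 to 26332756, + strand), had 472 and 418 counts in LT-HSC WT and 499 and 445 in LT-HSC KO libraries, with a log2 difference of 0.09 (SE 0.16, adjusted p = 0.720, edgeR). In MPP it had 113 ± 3.57 CPM in WT and 99.9 ± 0.717 CPM in KO (SD, n = 2) and a log2 difference of -0.10 (SE 0.07, adjusted p = 0.406, edgeR). Its 4 groups did not overlap, and the lowest and highest means were only 85.1 and 113 CPM.

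Apc, a scaffold that holds beta-catenin in the complex (ENSMUSG00000005871, mm9 chromosome 18, 34380578 to 34481843, + strand), had 497 and 754 counts in LT-HSC WT and 463 and 602 in LT-HSC KO libraries. The genotypes overlapped, and the log2 fold change was -0.23 (SE 0.23, adjusted p = 0.495, edgeR). In MPP the counts were 2122 and 2364 in WT and 2404 and 2694 in KO, with a log2 difference of 0.21 (SE 0.10, adjusted p = 0.255, edgeR).

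Gsk3b, the kinase that phosphorylates beta-catenin (ENSMUSG00000022812, mm9 chromosome 16, 38089087 to 38246170, + strand), had 683 and 860 counts in LT-HSC WT and 734 and 834 in LT-HSC KO libraries. Its log2 fold change was 0.03 in LT-HSC (SE 0.18, adjusted p = 0.932) and 0.00 in MPP (0.0042, SE 0.09, adjusted p = 0.986, edgeR). Apc and Gsk3b had higher means in both MPP groups than in both LT-HSC groups. Between the WT populations neither passed the test, at -0.62 for Apc (SE 0.21, adjusted p = 0.0684) and -0.47 for Gsk3b (SE 0.16, adjusted p = 0.0614, edgeR).

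Ctnnb1 encodes beta-catenin, which both anchors cell junctions and carries the Wnt signal to the nucleus (ENSMUSG00000006932, mm9 chromosome 9, 120838334 to 120869625, + strand). It had 2397 and 1944 counts in LT-HSC WT and 1851 and 1611 in LT-HSC KO libraries, or 414 ± 33.1 and 332 ± 19.2 CPM (SD, n = 2). Both KO libraries lay below both WT libraries, but the log2 fold change of -0.32 did not pass the test (SE 0.17, adjusted p = 0.186, edgeR). In MPP the levels were 367 ± 3.86 CPM in WT and 330 ± 9.86 CPM in KO (SD, n = 2), again without overlap, at a log2 difference of -0.08 (SE 0.06, adjusted p = 0.512, edgeR).

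Lef1, one of the DNA-binding partners of beta-catenin (ENSMUSG00000027985, mm9 chromosome 3, 130813389 to 130927274, + strand), was higher in KO in both populations. In MPP it had 145 and 139 counts in WT and 350 and 320 in KO libraries, or 11.9 ± 0.425 and 26.9 ± 1.54 CPM (SD, n = 2). The 2 KO libraries lay well above the 2 WT libraries, with a log2 difference of 1.26 (SE 0.11, adjusted p = 0.00744, edgeR). Leaving out either MPP WT library ended the call (1.28, adjusted p = 0.296 without replicate 1, and 1.22, adjusted p = 0.281 without replicate 2, edgeR). In those fits 0 genes passed among all genes tested by edgeR, with 2119 and 2220 at an unadjusted p under 0.05.

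In LT-HSC, Lef1 had 3 and 0 counts in WT and 28 and 51 in KO libraries, or 7.65 ± 3.43 CPM in KO (SD, n = 2). The summed 79 against 3 counts give a ratio of 26.4 (95% exact binomial interval 8.70 to 131, counting error only), and Lef1 passed the edgeR test (adjusted p = 0.00399). Lef1 spans 114 kb, and an antisense gene model lies at its start in the GENCODE annotation, from which its reads cannot be told apart without a stated strand setting. At the rate of counts per kb of the long neuronal genes, 46.4 and 39.1 counts would fall on a span of that size in the 2 KO libraries, together 85.5 where 79 were counted. In LT-HSC WT the same rate gives 11.0 counts where 3 were counted, and in MPP KO it gives 11.0 of 670 counts. With this rate subtracted, too few Lef1 counts were left in LT-HSC for a test, while the MPP difference kept its size (1.29, adjusted p = 0.00706, edgeR). The difference between the populations in the Lef1 effect, 3.39 (SE 0.81, adjusted p = 0.0214, edgeR interaction term), did not pass after that subtraction (5.17, adjusted p = 0.292). It also missed the threshold in the fits without LT-HSC KO replicate 2, without LT-HSC WT replicate 2 and in each of the 4 fits without 1 MPP library (adjusted p = 0.052 to 0.0588).

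Markers of several other cell types were higher in MPP KO beside Lef1, where 4.74% of all genes tested were higher. Summed T cell markers were 84.8 to 91.2 CPM in WT and 124 to 134 CPM in KO MPP libraries, and 4 of 11 passed the test, all higher: Cd2, Cd3g, Cd8a and Themis. Cd8a was at 0 in both MPP WT libraries. Summed B lineage markers were 462 to 487 CPM in WT and 626 to 638 CPM in KO, and 4 of 10 passed, all higher: Blnk, Cd79a, Igll1 and Vpreb1. Summed granulocyte and monocyte markers were 1265 to 1294 CPM in WT and 2170 to 2201 CPM in KO MPP libraries, with 5 of 9 higher, and erythroid markers were 897 to 903 CPM and 1252 to 1268 CPM, with 7 of 11 higher. In LT-HSC the T cell sum was 34.1 to 46.6 CPM in WT and 68.7 to 80.4 CPM in KO, with Cd3g and Cd8a at 0 in both WT libraries. The part of such cells in the Lef1 difference was not tested.

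Tcf7l2, another DNA-binding partner of beta-catenin (ENSMUSG00000024985, mm9 chromosome 19, 55816300 to 56008144, + strand), did not follow Lef1. It had 292 and 241 counts in LT-HSC WT and 228 and 202 in LT-HSC KO libraries (50.9 ± 3.44 and 41.2 ± 1.87 CPM, SD, n = 2), at a log2 difference of -0.31 (SE 0.19, adjusted p = 0.267, edgeR). In MPP the counts were 377 and 412 in WT and 440 and 478 in KO, at a log2 difference of 0.24 (SE 0.10, adjusted p = 0.200, edgeR). KO was below WT in LT-HSC and above it in MPP, and the difference of the 2 effects did not pass the test (-0.55, SE 0.19, adjusted p = 0.0660, edgeR interaction term). The Tcf7l2 gene spans 192 kb, and the neuronal rate gives 144 of its 430 counts in LT-HSC KO but 18.5 of 533 in LT-HSC WT. With that background subtracted the difference of the effects was -0.94 (adjusted p = 0.0217, edgeR). Among WT libraries Tcf7l2 was higher in LT-HSC than in MPP, by 0.65 on the log2 scale (SE 0.16, adjusted p = 0.0251, edgeR). Without MPP WT replicate 1 or replicate 2 that call ended (adjusted p = 0.254 and 0.145).

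Axin2, a destruction complex scaffold and target gene of the pathway (ENSMUSG00000000142, mm9 chromosome 11, 108781663 to 108812097, + strand), was lower in KO in MPP. It had 28 and 32 counts in MPP WT and 7 and 5 in MPP KO libraries, or 2.50 ± 0.221 and 0.481 ± 0.111 CPM (SD, n = 2). The KO libraries were clearly apart from WT, at a log2 difference of -2.28 (SE 0.35, adjusted p = 0.0282, edgeR). These are low counts. In the 4 fits without 1 MPP library the value stayed between -2.53 and -2.07. The call ended in those fits, where calls fell across all genes. In DESeq2 it was -2.31 (adjusted p = 0.0603).

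In LT-HSC Axin2 lay on the other side. It had 6 and 22 counts in WT and 25 and 31 in KO libraries, or 2.76 ± 2.35 and 5.40 ± 1.03 CPM (SD, n = 2), so the WT libraries themselves were far apart. The log2 fold change of 0.99 did not pass the test (SE 0.60, adjusted p = 0.248, edgeR), and it was 2.18 (adjusted p = 0.0198) without LT-HSC WT replicate 2. The span of Axin2 takes an expected 22.9 of the 56 counts in LT-HSC KO and 2.93 of the 28 in LT-HSC WT. The effects in LT-HSC and MPP differed by 3.25 (SE 0.81, adjusted p = 0.0251, edgeR interaction term), and by 3.03 (adjusted p = 0.103) after the span background was subtracted. That difference also missed the threshold without either LT-HSC KO library and in each of the 4 fits without 1 MPP library (adjusted p = 0.0578 to 0.0828). Axin2 and Lef1, both targets of the pathway, had opposite signs in MPP.

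**Figure D3:**
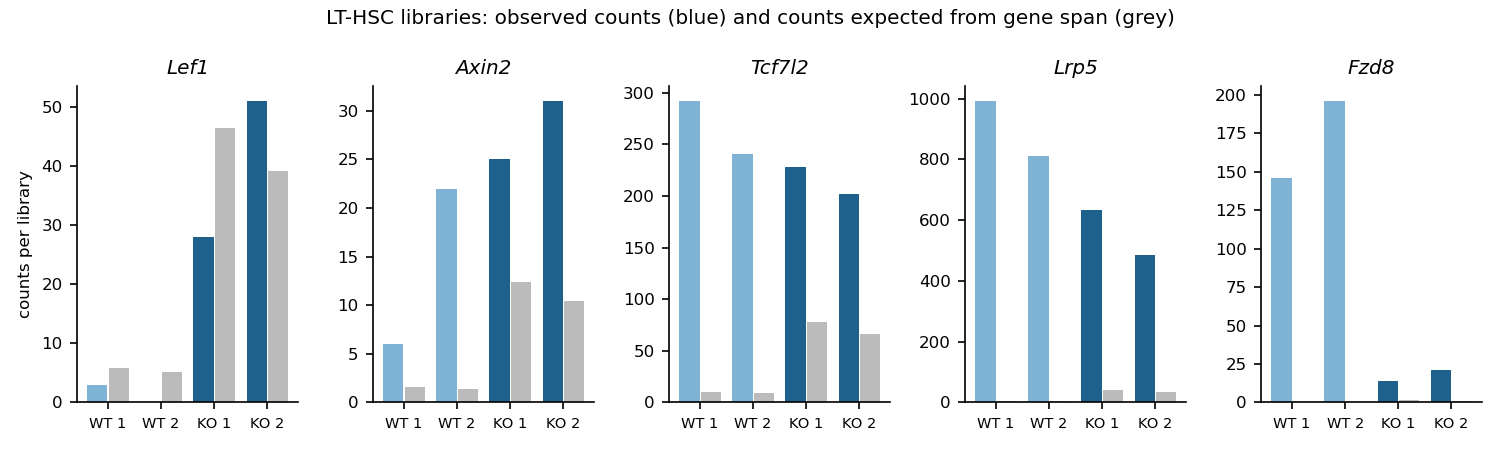
Counts per library (vertical axis, from 0) of 5 members in the 2 WT and 2 KO LT-HSC libraries (blue), beside the counts that the median long neuronal gene's rate per kb gives for the same span (grey). The grey bars are of the size of the observed counts for Lef1 in KO, exceed them in WT, and stay low for Fzd8, whose span is 3.35 kb.

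The span background was compared with all 10 members in LT-HSC KO. It amounted to 108% of the counts of Lef1, 40.8% of those of Axin2 and 33.5% of those of Tcf7l2, and to 0.679% to 8.28% for the other seven. After subtraction, Fzd8 was the only member that passed in LT-HSC (-3.16, adjusted p = 0.00495, edgeR), and Lrp5 was at -0.58 (adjusted p = 0.0824, edgeR). Over all genes, 1170 higher and 797 lower of 13610 tested passed in that fit, against 3529 and 1717 of 15684 without subtraction. The rate was taken from the median gene of the list, a choice made after seeing that Il1rapl1 and Cntnap5b held 26.0% and 22.4% of the list's counts. Whether the counts in LT-HSC KO arose from this background was not tested.

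The interaction term was tested over 16551 genes in all 8 libraries. The effects of KO differed between LT-HSC and MPP for 4 of 10 members, against 22.1% of all genes tested. They were higher in LT-HSC for Lef1 and Axin2, as for 13.6% of all genes, and lower for Fzd8 and Lrp5, as for 8.50%. Fzd8 passed in every fit without 1 library (-2.76 to -2.10, adjusted p = 0.00883 to 0.0368, edgeR). Of the other pathway genes, 8 of 85 tested had a higher and 13 a lower effect in LT-HSC. Fewer of these passed without LT-HSC KO replicate 1 or with any 1 MPP library left out, as over all genes. Lrp5 missed the threshold in the fits without LT-HSC KO replicate 2, LT-HSC WT replicate 1, MPP KO replicate 1 or either MPP WT library (adjusted p = 0.0673 to 0.144).

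Between the WT populations 3 of 10 members passed, against 34.3% of the 14660 genes tested. Fzd8 and Tcf7l2 were higher in LT-HSC. Lef1 was lower there, with 3 counts in LT-HSC WT against 284 in MPP WT. Axin1 had a log2 difference of -0.38 (SE 0.13, adjusted p = 0.0583), Ctnnb1 of 0.20 (SE 0.14, adjusted p = 0.320), Lrp5 of 0.18 (SE 0.15, adjusted p = 0.401) and Lrp6 of -0.12 (SE 0.12, adjusted p = 0.475, edgeR). Without LT-HSC WT replicate 2 more members passed, Apc and Gsk3b among them, in a fit where calls rose across all genes too. With 1 library left out, Gsk3b was at -0.69 to -0.31, and Apc kept its negative sign. Axin2 was at 0.12 (SE 0.60, adjusted p = 0.889), and its sign turned to -1.14 (adjusted p = 0.123) without LT-HSC WT replicate 2.

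Another 107 genes of 7 Wnt lists (ligands, receptors, inhibitors, cytoplasmic relay, nuclear factors, targets and planar cell polarity) were listed in either table. In LT-HSC 83 of these were tested: 15 were higher in KO, 13 were lower, and the median log2 fold change was 0.00 (0.0037), beside 22.5% higher, 10.9% lower and a median of 0.03 over all genes. Fewer of these genes passed without either LT-HSC KO library, as over all genes. In MPP 74 were tested, with 4 higher, 1 lower and a median of 0.08, beside 4.74% higher, 2.46% lower and a median of -0.01 over all genes. Fewer passed with any 1 MPP library left out, as over all genes.

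**Figure D4:**
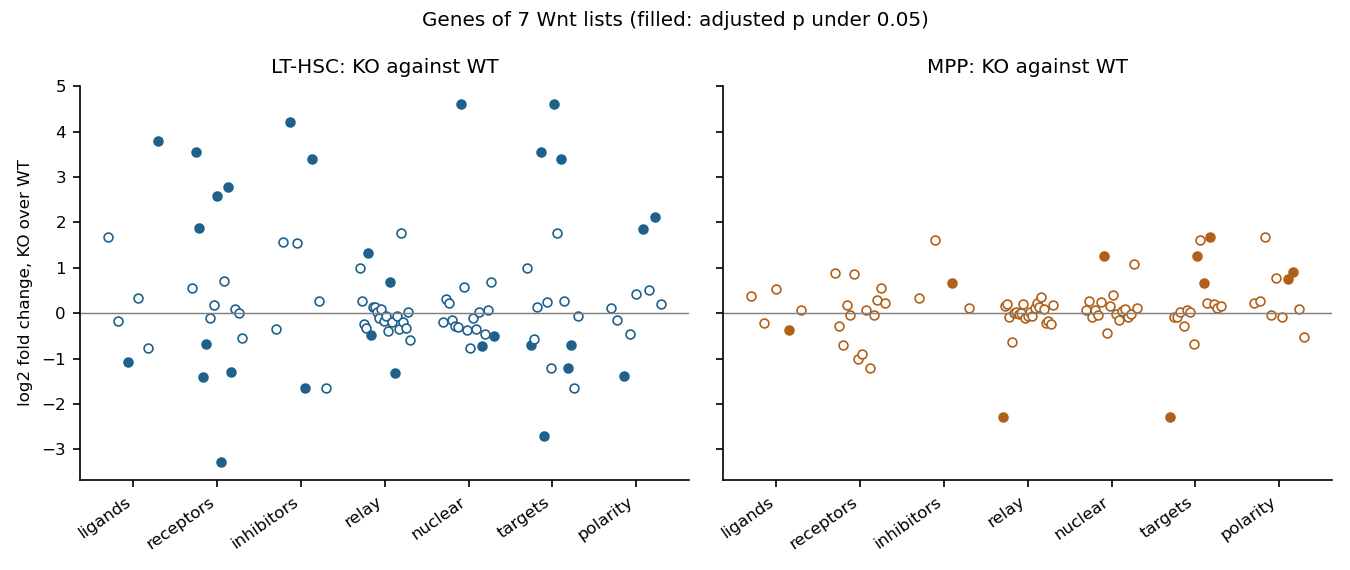
Log2 fold change of KO over WT (vertical axis) for the tested genes of the 7 Wnt lists, members included, in LT-HSC (left) and MPP (right). A gene in several lists is drawn in each, 4 LT-HSC genes with 0 counts in a group are not drawn, and filled points have an adjusted p under 0.05; filled points are many on both sides in LT-HSC and few in MPP.

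Among ligands and agonists, 8 were tested in LT-HSC, with 3 higher (Rspo2, Rspo3 and Wnt3) and 1 lower (Wls). Rspo2 and Rspo3 encode R-spondins, secreted proteins that amplify the Wnt response. Rspo2 had 169 counts in LT-HSC KO and 12 in LT-HSC WT, at a log2 difference of 3.79 (SE 0.59, adjusted p = 0.00213, edgeR). Rspo3, with 46 KO counts against 0 in WT, was at least 15.4-fold higher, taking 3 counts over the group as the limit (95% exact lower limit of the ratio 12.0, counting error only). For the LT-HSC KO libraries the span background gives 113 counts of Rspo2 and 62.1 of Rspo3. In LT-HSC WT it gives 14.5 and 7.97, where 12 and 0 were counted. Bone and stromal markers moved with these genes: 10 of 12 tested were higher in LT-HSC KO, beside 22.5% of all genes. Cxcl12, Bglap, Bglap2, Sp7 and Ibsp were at 0 in both LT-HSC WT libraries. The part of such cells in the differences was not tested. Wls encodes the protein that carries Wnt ligands to the cell surface, and it was lower in KO in both populations. Its level was 130 ± 4.14 CPM in LT-HSC WT and 62.3 ± 0.886 CPM in LT-HSC KO (SD, n = 2), at a log2 difference of -1.07 (SE 0.16, adjusted p = 0.00183, edgeR). In MPP it was 96.7 ± 1.13 CPM in WT and 71.0 ± 1.29 CPM in KO (SD, n = 2), at -0.37 (SE 0.07, adjusted p = 0.0409, edgeR). With 1 MPP library left out, the MPP value of Wls stayed between -0.40 and -0.35. Its call ended in those fits, where calls fell across all genes. It also ended with DESeq2 (adjusted p = 0.0924) and with no filter on low counts (adjusted p = 0.0586, edgeR).

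Of 12 receptors and co-receptors other than the members, 4 were higher in LT-HSC KO (Lgr5, Lgr6, Ror1 and Ror2) and 2 were lower (Fzd5 and Fzd6). In MPP 0 of 11 passed in edgeR or DESeq2, with 3 higher and 2 lower at an unadjusted edgeR p under 0.05. Lgr5, an R-spondin receptor and marker of intestinal stem cells, had 143 counts in LT-HSC KO and 12 in LT-HSC WT (log2 fold change 3.55, SE 0.48, adjusted p = 0.00133, edgeR). Its relative Lgr6 had 91 and 13 (2.78, SE 0.52, adjusted p = 0.0044). Ror1, a tyrosine kinase receptor for non-canonical Wnt ligands, had 187 and 31 (2.59, SE 0.37, adjusted p = 0.00168). For the counts of Lgr5, Lgr6 and Ror1 in LT-HSC KO, the span background came to 72.2%, 98.1% and 140%. In LT-HSC WT it came to 110%, 88.1% and 108% of their counts.

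Among 9 inhibitors tested in LT-HSC, 3 were higher in KO (Dkk2, Rnf43 and Wif1) and 1 was lower (Sfrp1). Dkk2, a secreted antagonist of Lrp5 and Lrp6, had 60 counts in KO and 3 in WT, a ratio of 20.0 (95% exact binomial interval 6.54 to 99.9). The span background amounted to 119% of its KO counts, and gives 9.15 counts in LT-HSC WT where 3 were counted. It came to 82.8% of the KO counts of Rnf43, a ubiquitin ligase that removes Frizzled receptors from the membrane. Rnf43 had 66 against 6 counts (log2 fold change 3.41, SE 0.58, adjusted p = 0.00299, edgeR). Sfrp1, a secreted protein that binds Wnt ligands, had 63 counts in KO and 198 in WT (-1.64, SE 0.36, adjusted p = 0.00899, edgeR). Without LT-HSC KO replicate 1 the call of Sfrp1 ended (-1.29, adjusted p = 0.091). Znrf3, the close relative of Rnf43, was higher in MPP KO, at 56.7 ± 4.88 CPM against 37.6 ± 2.90 CPM in WT (SD, n = 2). Its log2 fold change was 0.67 (SE 0.11, adjusted p = 0.0310, edgeR), which missed the threshold with no filter on low counts (adjusted p = 0.0536). With any 1 MPP library left out it was 0.57 to 0.76. It missed the threshold in those fits too, where calls fell across all genes.

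Of 19 other cytoplasmic genes tested in LT-HSC, 2 were higher in KO (Apc2 and Btrc) and 2 lower (Ctnnbip1 and Fbxw11), and 0 of 18 passed in MPP in edgeR or DESeq2 (2 higher and 1 lower at an unadjusted edgeR p under 0.05). Apc2, a relative of Apc, had 168 counts in LT-HSC KO and 67 in WT (1.33, SE 0.33, adjusted p = 0.0154). Btrc, a subunit of the ubiquitin ligase that takes up phosphorylated beta-catenin, had 756 and 467 (0.70, SE 0.18, adjusted p = 0.0167). Ctnnbip1, which blocks beta-catenin from its nuclear partners, had 62 and 155 (-1.32, SE 0.33, adjusted p = 0.0168). Each of these calls ended without LT-HSC KO replicate 1 (adjusted p = 0.0861, 0.145 and 0.147) and without LT-HSC KO replicate 2 (adjusted p = 0.122, 0.12 and 0.0677), and that of Btrc also without LT-HSC WT replicate 1 (adjusted p = 0.0654). Of 16 other nuclear genes, 2 were lower in LT-HSC KO: Bcl9l, a beta-catenin co-activator (-0.51, SE 0.16, adjusted p = 0.0378), and Chd8, a chromatin remodeller (-0.72, SE 0.20, adjusted p = 0.0243, edgeR). Both calls ended without either LT-HSC KO library or without LT-HSC WT replicate 1 (adjusted p = 0.0659 to 0.331). In MPP 0 of these 16 passed in edgeR or DESeq2, with 1 higher at an unadjusted edgeR p under 0.05.

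Target genes did not move one way. Of 15 tested in LT-HSC beside the members, 3 were higher in KO (Lgr5, Rnf43 and Tnfrsf19) and 4 lower (Ccnd1, Id2, Jun and Ppard). The log2 fold changes of these 4 were -0.69, -2.70, -1.21 and -0.71. Over all genes tested in LT-HSC, 22.5% were higher and 10.9% lower. In MPP 2 of 14 were higher in KO (Tnfrsf19 and Znrf3), and 0 were lower in edgeR or DESeq2, also 0 at an unadjusted edgeR p under 0.05. Over all genes tested in MPP, 4.74% were higher and 2.46% lower. Tnfrsf19, a receptor of the TNF receptor family, had 242 counts in MPP KO and 76 in MPP WT, or 9.72 ± 0.739 and 3.17 ± 0.255 CPM (SD, n = 2). The log2 fold change was 1.69 (SE 0.17, adjusted p = 0.0110, edgeR), and 1.60 to 1.77 with 1 MPP library left out. The call ended without either MPP WT library or without MPP KO replicate 2, in fits where calls fell across all genes. Its 48 LT-HSC KO counts stood against 0 in WT, which makes it at least 16.0-fold higher by the same limit of 3 counts (95% exact lower limit of the ratio 12.5), where the span background gives 62.3 counts in KO.

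Planar cell polarity genes, of a Wnt branch that does not use beta-catenin, held the pathway gene with the smallest adjusted p in LT-HSC among those named. Daam1, a formin that links Dishevelled to the actin skeleton, had 142 ± 10.5 CPM in LT-HSC KO and 39.2 ± 5.37 CPM in LT-HSC WT (SD, n = 2), at a log2 difference of 1.86 (SE 0.17, adjusted p = 0.000237, edgeR). The span background came to 8.18% of its KO counts, and the value was 2.00 with that subtracted (adjusted p = 0.00182). In MPP it was 52.8 ± 6.44 CPM in KO and 33.0 ± 1.22 CPM in WT (SD, n = 2), at 0.76 (SE 0.11, adjusted p = 0.0280, edgeR). That MPP call ended with no filter on low counts (adjusted p = 0.051, edgeR). It also ended without MPP KO replicate 2 or either MPP WT library, in fits where calls fell across all genes. With 1 MPP library left out the MPP value of Daam1 was 0.62 to 0.88. Its relative Daam2 had 183 counts in LT-HSC KO and 42 in LT-HSC WT (2.12, SE 0.42, adjusted p = 0.0054, edgeR), of which the span background gives 81.3 and 10.4. Vangl2, a membrane protein that sets cell polarity, was lower in LT-HSC KO, at 16.5 ± 2.16 against 42.7 ± 1.28 CPM (SD, n = 2, log2 fold change -1.38, SE 0.22, adjusted p = 0.00234, edgeR). Prickle1, its partner in polarity, was higher in MPP KO (0.91, SE 0.18, adjusted p = 0.0499), a call that ended with any 1 MPP library left out (adjusted p = 0.117 to 0.332).

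After the span background at the median gene's rate was subtracted in LT-HSC, 14 of the other pathway genes passed in place of 28. Rspo2, Lgr5, Sfrp1, Wls, Vangl2 and Daam1 were among them, with log2 fold changes of 4.30, 5.19, -2.29, -1.02, -1.34 and 2.00 (adjusted p = 0.0386, 0.0204, 0.0418, 0.0117, 0.0157 and 0.00182, edgeR). At the rate summed over the list, 3 passed: Wls at -1.05, Daam1 at 2.23 and Vangl2 at -1.39 (adjusted p = 0.0361, 0.0191 and 0.0485). Sfrp1 was then at -2.66 (adjusted p = 0.272, edgeR), and Rspo2 and Lgr5 had no tested value. Calls fell over all genes too. Without subtraction 3529 higher and 1717 lower of 15684 tested passed in LT-HSC. At the median gene's rate these were 1170 and 797 of 13610, and at the summed rate 296 and 143 of 12809.

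For Lef1, Fzd8 and Axin2 the genes with the most similar pattern over the 8 libraries were sought among 13244 genes, by the smallest root mean square difference of centred log2 CPM. For Lef1 these were Fcgr3 (0.55), Dusp14 (0.56) and Cd2 (0.58), where the standard deviation of Lef1 itself was 2.33. For Fzd8 (standard deviation 1.22) they were Cbs (0.21), Nacad (0.26) and Id3 (0.35). For Axin2 (standard deviation 1.13) they were Hoxa2 (0.29), Calml4 (0.36) and Mapk12 (0.40). Id3, an inhibitor of basic helix-loop-helix factors, had 99 and 108 counts in LT-HSC WT, 15 and 18 in LT-HSC KO, 157 and 126 in MPP WT, and 44 and 70 in MPP KO libraries. Most of the others were at low counts: Cbs had 0 and 1 in LT-HSC KO against 13 and 14 in LT-HSC WT, and Hoxa2 had 0 in both MPP KO libraries against 10 and 16 in MPP WT. In LT-HSC WT, Fcgr3 had 1 and 0 counts, Dusp14 0 and 0, and Cd2 1 and 0. Fcgr3 did not share the MPP difference of Lef1, with 14.3 and 8.23 CPM in KO and 12.3 and 9.89 CPM in WT.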

How the data were processed

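RNA-seq counts of 10 Wnt pathway genes were read from 2 deposited tables, LT-HSC and MPP, each with 2 KO and 2 WT libraries. Poly(A) RNA was read as 50 bp pairs, per the labels' protocols. CASAVA and TopHat were used on mm9, per the submitters' processing notes. The sources used here do not name the read counter, its use of strand or the annotation. The values used are the raw counts that the authors deposited for each Ensembl ID. Beside them stand the authors' log2 fold change, a mean log2 CPM, a likelihood ratio score, a p-value and an FDR per the file headers. Genotype and replicate number in the column names tied each count column to its sample.

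Counts were filtered with filterByExpr, scaled by TMM and tested with edgeR 4.0.16 (R 4.3.3) by a two-sided quasi-likelihood test with Benjamini-Hochberg adjustment over all genes, at 0.05. Each population was fitted alone, the interaction used all 8 libraries and the WT comparison 4. The SE is the fold change over the root of the test statistic. Ratios of 1 to 3 counts carry a 95% exact binomial interval, and intervals and limits cover counting error only. DESeq2 1.42.0, median-of-ratios size factors, no filter, a replicate block, each library left out and subtraction of the span background were alternatives. The scripts were tested on simulated data. The members, the 7 Wnt lists, the 9 marker lists and the list of 40 neuronal genes were chosen with earlier results of these data known. Named were all members, and per list and genotype comparison up to 3 other called genes with the largest fold change at a mean of at least 10 counts. Symbols and mm9 positions are those of the deposited tables. Promoter windows are from RefSeq (GRCm38.p6).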

Additional observations from a re-analysis of the deposited data

Results flagged for a closer look

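For 16 genes given with their fold changes above (4 members and 12 other pathway genes), the difference of the KO effect between LT-HSC and MPP passed the edgeR interaction test at an adjusted p under 0.05. Among the members, the log2 effect in LT-HSC minus that in MPP was 3.39 for Lef1, 3.25 for Axin2, -2.40 for Fzd8 and -0.87 for Lrp5. Axin2 and Lrp5 had opposite signs in the 2 populations (0.99 and -2.28 for Axin2, -0.69 and 0.17 for Lrp5), while Lef1 and Fzd8 had the same sign in both.

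Among receptors and targets the difference was 3.83 for Lgr5, 3.60 for Ror1 and 6.59 for Tnfrsf19, where the last is a fitted value against 0 counts in LT-HSC WT and no bound. Other genes of these lists that passed were Ror2 (2.47), Fzd5 (-1.26), Ccnd1 (-0.89), Id2 (-2.79) and Jun (-1.44), and the target genes other than the members, of which 2 of 15 were called positive and 3 negative, had a median of -0.50. It was 1.97 for Apc2, 0.58 for Btrc and -1.46 for Ctnnbip1 among cytoplasmic genes, and -0.62 for Bcl9l and -0.80 for Chd8 among nuclear genes. Kremen1, Tle2, Tle3 and Vangl1, also in the lists, passed at -0.69, -1.18, -0.55 and -1.23. It was -0.70 for Wls, lower in KO in both populations and more so in LT-HSC. Of the polarity genes it was 1.101 for Daam1, 2.03 for Daam2 and -1.35 for Vangl2. The span background was higher in LT-HSC KO than in the other libraries. It came to 140% of the LT-HSC KO counts of Ror1, 130% of those of Tnfrsf19 and 72.2% of those of Lgr5. For Ctnnbip1, Daam2, Btrc, Apc2 and Bcl9l it came to 58.4%, 44.4%, 16.8%, 9.96% and 0.955%. For Vangl2, Wls, Daam1 and Chd8 it came to 12.1%, 11.1%, 8.18% and 3.57%. Its part in these differences was not tested for each gene.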

How the results depend on the processing

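Median-of-ratios size factors moved no count of called members or pathway genes by over 1.5 times. The number of called members in LT-HSC was 3, and 5 with the replicate block, 1 with the span background subtracted by the list's summed rate or by its median gene, and 2 to 4 without 1 library. In MPP it was 2, and 1 with DESeq2, 8 with the replicate block and 0 to 1 without 1 library. For the interaction it was 4, and 7 with the block, 2 and 2 with either background subtracted and 1 to 4 without 1 library. For the WT populations it was 3, and 6 with the block and 2 to 5 without 1 library. The other pathway genes called were 28 in LT-HSC (47 with the block, 3 and 14 with the summed and median background, 14 to 33 without 1 library), 5 in MPP (1 with no filter, 3 with DESeq2, 39 with the block, 0 to 2 without 1), 21 for the interaction (41 with the block, 5 with the summed background, 7 to 20 without 1) and 26 for the WT populations (41 with the block, 13 with the summed background, 11 to 34 without 1). Same-numbered libraries correlated in their deviations (0.437 in LT-HSC, 0.747 in MPP, 0.536 in WT), but with 2 pairs the numbers do not show a pairing, and the block made calls across all genes more numerous too (3536 higher and 3698 lower in MPP, against 707 and 366). Over all LT-HSC genes, 296 higher and 143 lower passed with the summed background subtracted and 1170 and 797 with the median one, against 3529 and 1717.

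Where a sign turned, the value did not pass the test in either fit. Gsk3b in LT-HSC was -0.00085 with DESeq2 and -0.16 to 0.18 without 1 library, and in MPP -0.0036 with no filter, -0.0044 with DESeq2 and -0.087 to 0.088. Its interaction was -0.18 to 0.22 without 1 library. Tet1 in LT-HSC was 0.0063 with the summed background subtracted and -0.29 to 0.083 without 1 library. Also without 1 library, LT-HSC values were -0.25 to 0.012 for Lrp6, -0.026 to 0.16 for Axin1 and -0.53 to 0.078 for Apc, the Lrp6 interaction was -0.19 to 0.013 (0.015 with the summed background subtracted), and Axin2 between WT populations was -1.14 to 0.77. The members gained with the block were Ctnnb1 (-0.32, adjusted p = 0.000159) and Apc (-0.22, adjusted p = 0.0474) in LT-HSC, Fzd8, Apc, Axin1, Ctnnb1, Lrp5 and Tcf7l2 in MPP, Apc, Ctnnb1 and Tcf7l2 for the interaction, and Apc, Axin1 and Gsk3b for the WT populations. The causes were not tested. Depth limits Lef1 in LT-HSC WT and Axin2 in MPP KO, with 3 and 12 counts in 2 libraries. A lone library left in a group is assumed to vary like the others. Calls over all genes fell in every fit without 1 MPP library or without 1 LT-HSC KO library. A call that ended in such a fit is therefore no mark of that gene alone.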

Other observations

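The order of the 2 same-numbered libraries was the same in all 4 groups for some members. The CPM of Lrp5, Axin1 and Ctnnb1 was higher in library 1 than in library 2 in 4 of 4 groups, and that of Apc, Gsk3b and Fzd8 was higher in library 1 in 0 of 4 groups.

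Of the target genes with a RefSeq promoter window, 2 of 17 held the letters ATCAAAG on either strand. Of the 23 windows of these genes, 8.70% held them.

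In the WT populations the other genes of the Wnt lists were higher in LT-HSC in 20 and lower in 6 of 73 tested, where 17.4% and 16.9% of all genes passed on each side. Their median log2 difference was 0.23, beside 0.02 over all genes. Fewer of these passed without either MPP WT library, as over all genes. The receptors Fzd3, Fzd4, Lgr4, Ror2 and Ryk were higher in LT-HSC WT and Lgr5 was lower. Among ligands and agonists Porcn and Wls, both needed to make and release Wnt proteins, were higher in LT-HSC WT. The targets Lgr5, Myc, Sox4 and Tnfrsf19 were lower there, and Fosl1 and Ppard were higher (1.27 and 0.48, adjusted p = 0.0341 and 0.0465, edgeR). Beside this, 25 of 39 long neuronal genes tested were higher in LT-HSC WT, at a median of 1.48, and their part in the differences of the Wnt genes was not tested.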
